A study of Homo sapiens with 6 samples.

Results

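The genes described here encode the proteins of the cytosolic ribosome. They were chosen by symbol: RPL or RPS followed by a number, with at most a short A, X, L or Y ending, plus RPLP0, RPLP1, RPLP2 and RPSA. Pseudogene symbols, which end in P and a number, were left out. The rule gave 87 of the 26485 symbols in the tables, made up of 46 large-subunit genes, 31 small-subunit genes and 10 paralogs of such genes. RNA came from AF22, an established neural stem cell line that was made from human induced pluripotent cells, and was sequenced. The knockdown group (3 libraries) is labelled with the genotype COMMD3/COMMD3-BMI1 knockdown, with no word on the reagent. The control group (3 libraries) is labelled shControl, a control short hairpin RNA, with the genotype WT. Both groups are the same line, and the labels name no other treatment. Whether replicates came from separate cultures is not stated, so p-values here reflect the spread of these 6 libraries, part or all of which may be technical.

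The cytosolic ribosome translates nuclear messages. Its small subunit reads the mRNA, and its large subunit joins the amino acids and lets the chain out through a tunnel. Ribosomal proteins are made in matched amounts, and unassembled copies are degraded. Most of their mRNAs begin with a C followed by a run of pyrimidines, the 5′ terminal oligopyrimidine (TOP) motif, which ties their translation to the kinase mTORC1 through LARP1. The surface of the large subunit carries a mobile stalk, made of RPLP0, RPLP1 and RPLP2 on a base that includes RPL12, which recruits and activates translation factors. In neural progenitors, as in other dividing cells, making ribosomes takes a large part of the biosynthetic effort.

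The transcription start of some members whose levels moved most is shown because the TOP motif begins at that base. Each sequence runs 5′ to 3′ on the gene's strand, from 15 bases before the RefSeq start (GRCh38.p14), and the capitals mark an unbroken pyrimidine run that begins with C at the start base. RPL28 and RPL38 had the largest rises, RPLP0 was the member that fell, RPLP2 and RPL12 are its partners in the stalk, and RPS27L, a paralog, has no such run.
RPL28: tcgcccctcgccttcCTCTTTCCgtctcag
RPL38: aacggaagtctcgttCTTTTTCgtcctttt
RPLP0: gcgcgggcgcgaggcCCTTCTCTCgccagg
RPLP2: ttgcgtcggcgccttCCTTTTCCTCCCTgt
RPL12: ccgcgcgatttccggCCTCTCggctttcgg
RPS27L: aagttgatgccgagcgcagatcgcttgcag
These windows lie at chr19:55385917-55385946 for RPL28 and chr17:74203663-74203692 for RPL38, both on the plus strand. For RPLP0 the window is chr12:120201097-120201126 on the minus strand. Those of the partners are chr11:809952-809981 for RPLP2, on the plus strand, and chr9:127451392-127451421 for RPL12, on the minus strand. The window of RPS27L is chr15:63157463-63157492, on the minus strand. A start was listed for 70 members, and 48 of them (68.6%) carried a run of 5 or more pyrimidines opening with C, read on the transcribed strand only. Of all 27305 genes with a listed start, 1404 (5.14%) did. Thus RPLP0 and the 2 members with the largest rises begin with the same kind of motif. RPS28 and RPS29, which also rose, have no such run at the listed start, and the paralog RPL22L1 has a run of 6. The motif was present in 10 of 12 members that rose and in 36 of 54 that did not pass the test described next. Over the 67 tested members with a listed start, paralogs included, the median log2 fold change was 0.06 with it (47 genes) and 0.07 without it. A match of letters describes the sequence and does not show that an mRNA starts there in AF22.

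The libraries held 8574066 to 9692967 counts in the knockdown group and 7294687 to 11579849 in the control group. COMMD3, a subunit of the endosomal Commander complex and the gene named in the knockdown label, averaged 11.55 ± 1.22 CPM (counts scaled to a common, TMM-adjusted library size) in knockdown and 29.67 ± 2.04 CPM in control (SD, n = 3 each). The log2 fold change was −1.37, with an edgeR adjusted p of 2.34e-12. BMI1 averaged 104.8 ± 1.79 CPM in knockdown and 110.2 ± 2.41 CPM in control (edgeR adjusted p = 0.206), and COMMD3-BMI1 was listed at 0 in all 6 libraries. How reads that fit both this readthrough symbol and its parts were counted is not given, so its level cannot be judged from the 0. Of 15 neural stem cell markers 14 were expressed well enough to be tested, HES5 being at 0. Of these 14, 5 were lower (PLAGL1, ZBTB16, HES1, PROM1 and SOX2) and 1, MSI1, was higher in knockdown, and the median of the 14 was −0.145 on the log2 scale. Elsewhere GFAP (astrocytes), STMN2 and ELAVL4 (neurons) and DNMT3L, L1TD1 and ESRG (pluripotent cells) were also at 0. Some markers of other cell types also moved with the groups, in both directions. S100B (astrocytes; log2 fold change −0.62) and POU5F1 (pluripotent cells; −0.38) were lower, and GJA1 (astrocytes; 0.14) was higher. AQP4 (astrocytes; −0.19) and DPPA4 (pluripotent cells; −0.01) did not pass. The summed level of 8 neuronal markers was 597.3 to 623.9 CPM in knockdown and 640.3 to 691 CPM in control, most of it from MAP2, which did not pass. That of 6 oligodendrocyte-lineage markers was 157.9 to 165.3 CPM in knockdown and 184.7 to 192.9 CPM in control, and that of 6 fibroblast markers was 1191 to 1234 CPM in knockdown and 1099 to 1186 CPM in control. Most of the last sum came from COL3A1, which did not pass, while COL1A1 and POSTN were higher and LUM was lower. Of 36 tested interferon-response genes 34 passed as higher in knockdown, and the median of the 36 was 3.77 on the log2 scale. The part of these differences in the values below was not tested. In bulk RNA, a change in the mix of cells and a change in RNA per cell cannot be told apart.

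Ribosomal protein mRNAs differed little between knockdown and control cells, by 18% at most. Of the 83 members tested, 13 were higher, 1 (RPLP0) was lower and 69 did not pass (edgeR quasi-likelihood test, adjusted p under 0.05). Among all 13632 genes tested, 33.3% were called, 15.3% higher and 18.1% lower. The members' 15.7% higher is close to that background, while 1.2% were lower. No member had a log2 fold change beyond 0.25 in size, against 26% of all tested genes, and 56 members (67.5%) lay within 0.1 of 0, against 38.6% of all tested genes. At an unadjusted p under 0.05, 28 of the 83 members were called, where 42.9% of all tested genes were. The median member was 4.42% higher in knockdown, a log2 fold change of 0.06, and the median of all tested genes was 0.002. Positive log2 fold changes were found for 67 of 83 members (80.7%), against 50.4% of all tested genes. The members were measured with a median standard error of 0.0452 on the log2 scale, against 0.0661 for all tested genes, since most are abundant. The libraries of the groups did not overlap for 21 members, 20 of them higher in knockdown and RPLP0 lower, where 44.3% of all tested genes did not overlap. These counts depend on how the libraries were scaled and on individual libraries, as given below with the values per library.

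**Figure D1:**
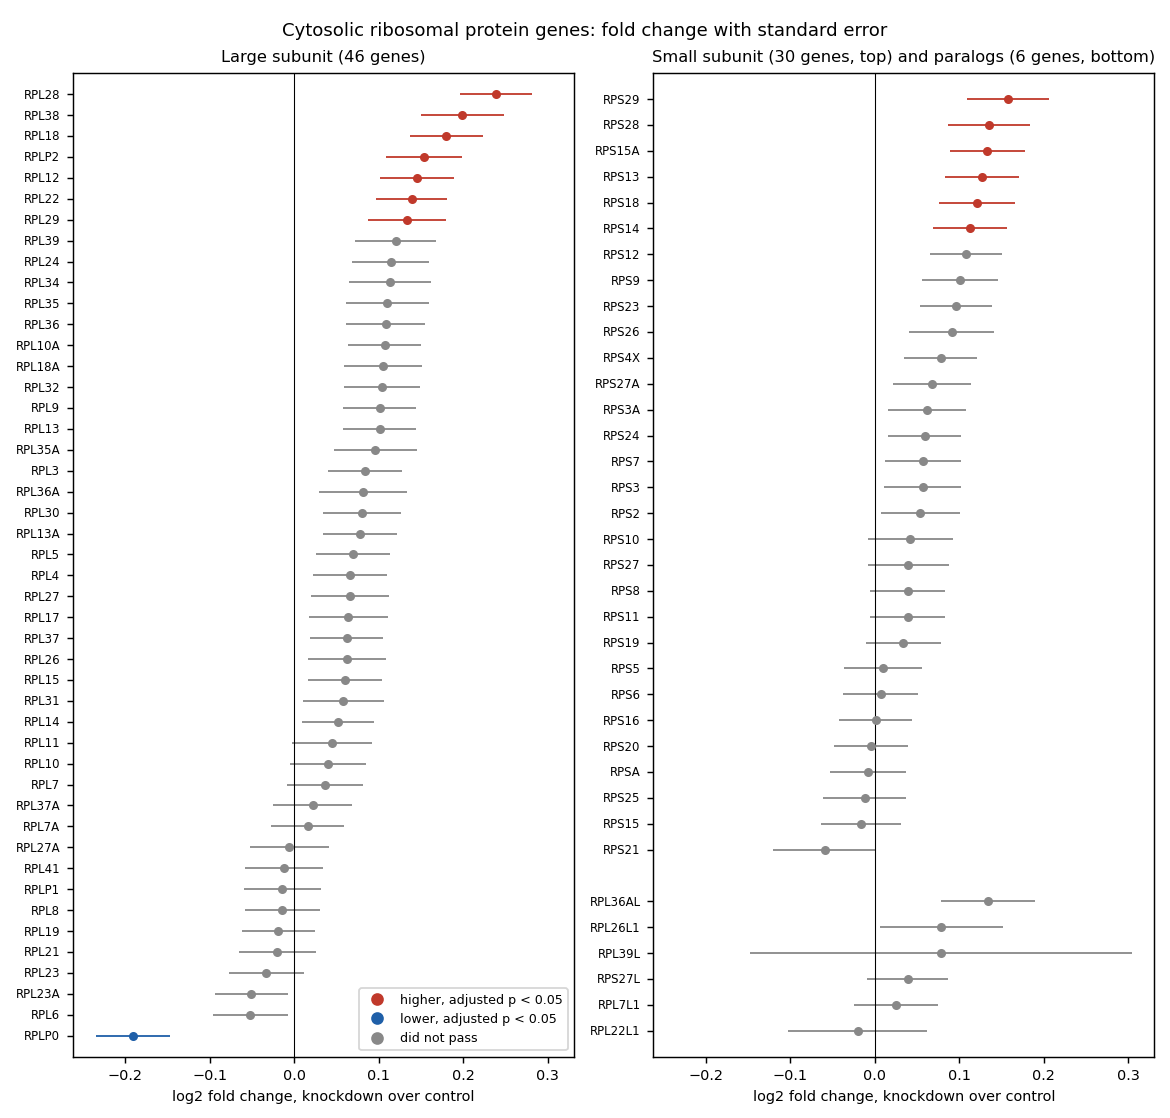
Log2 fold change (x axis, knockdown over control) of 82 tested members, 1 row per gene; points are edgeR estimates, bars are standard errors, and colour gives the call at an adjusted p under 0.05. The points run from −0.19 (RPLP0) to 0.24 (RPL28), and 66 lie above 0.

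**Figure D2:**
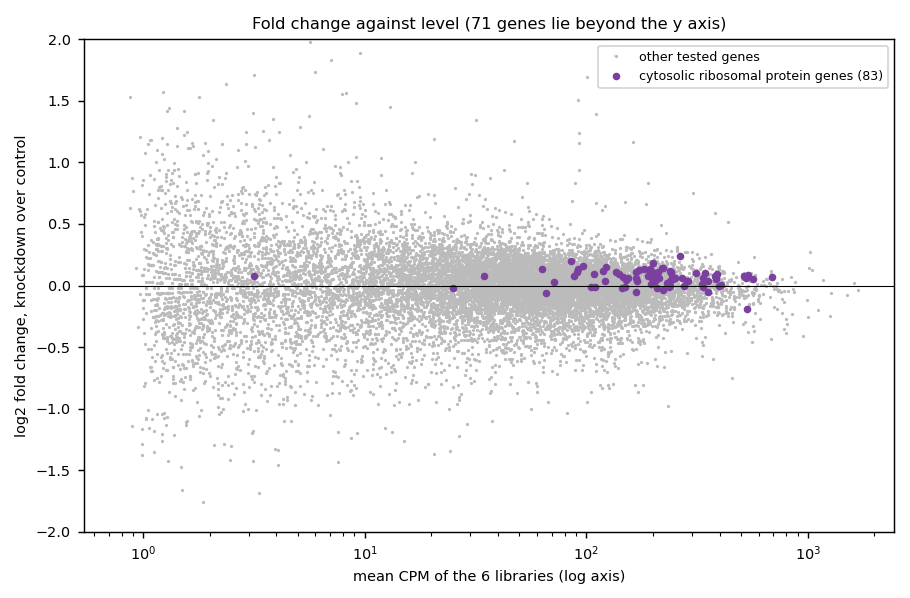
Log2 fold change (y axis, knockdown over control) against mean CPM of the 6 libraries (x axis, log scale), with the 83 members over the other tested genes; 71 genes lie beyond the y axis. The members form a narrow band between −0.19 and 0.24.

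On the large subunit, 7 of 46 genes were higher and 1 was lower, with a median log2 fold change of 0.07. RPL28, a protein that only eukaryotic ribosomes have, had 281.8, 292.4 and 286.2 CPM in knockdown libraries 1 to 3, against 238.4, 240.0 and 251.2 CPM in control libraries 1 to 3. Every knockdown library lay above every control library, and its log2 fold change was the largest of the members, at 0.24 with an SE of 0.0429 (edgeR adjusted p = 5.9e-05). RPL38, loss of which in mice alters translation of Hox mRNAs and the pattern of the skeleton, had 93.19, 88.10 and 92.88 CPM in knockdown and 82.45, 75.76 and 80.43 CPM in control. Its groups did not overlap either (log2 fold change 0.20, SE 0.0492, edgeR adjusted p = 0.0022). RPL18, which is mutated in some cases of Diamond-Blackfan anaemia, had 212.7, 215.5 and 207.5 CPM in knockdown against 192.5, 180.3 and 187.6 CPM in control (log2 fold change 0.18, edgeR adjusted p = 0.00171). All 3 knockdown values were again the higher ones, although 24.5% of the exon bases of RPL18 also lie in SPHK2 on the other strand and the strand setting of the counting is not given. RPL22, which in mice represses its own paralog Rpl22l1, had 234.1, 229.7 and 228.7 CPM in knockdown and 212.5, 208.0 and 208.3 CPM in control. Its groups did not overlap, and its log2 fold change was 0.14 (edgeR adjusted p = 0.0112). RPL29, also known as a heparin-binding protein, had 211.7, 204.4 and 193.4 CPM in knockdown and 183.2, 178.5 and 195.0 CPM in control (log2 fold change 0.13, edgeR adjusted p = 0.0256). It passed the test although its lowest knockdown library lay below its highest control library.

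The mRNAs of the stalk proteins, which form a single complex, changed unequally. RPLP0 had 501.7, 507.4 and 475.0 CPM in knockdown libraries 1 to 3, against 563.2, 550.1 and 580.6 CPM in control libraries 1 to 3. All knockdown values were below all control values, and RPLP0 fell by 12.4% (log2 fold change −0.19, SE 0.0441, edgeR adjusted p = 0.00115). RPLP2, an acidic protein that hangs from RPLP0 as a dimer with RPLP1, had 133.8, 128.7 and 125.0 CPM in knockdown and 115.9, 113.9 and 119.0 CPM in control. It was higher in each knockdown library than in any control library (log2 fold change 0.15, SE 0.0450, edgeR adjusted p = 0.00887). RPL12, at the stalk base, was likewise higher, with 236.0, 239.4 and 227.5 CPM in knockdown and 207.0, 209.6 and 220.1 CPM in control (log2 fold change 0.15, SE 0.0435, edgeR adjusted p = 0.0106). RPLP1 had 230.7, 239.8 and 234.7 CPM in knockdown against 232.2, 226.9 and 254.4 CPM in control, so its values overlapped (log2 fold change −0.01, SE 0.0457, edgeR adjusted p = 0.841). Count ratios, which were not corrected for length or GC content, do not depend on library scaling. That of RPLP0 to RPLP2 was 3.75, 3.94 and 3.80 in knockdown and 4.86, 4.83 and 4.88 in control. The ratio of RPLP0 to RPL12 counts was 2.13, 2.12 and 2.09 in knockdown against 2.72, 2.62 and 2.64 in control, and that of RPLP0 to RPLP1 counts was 2.17, 2.12 and 2.02 in knockdown against 2.43, 2.42 and 2.28 in control. In all 3 ratios the groups were separate, so RPLP0 mRNA changed unequally to that of each partner. With length and GC content corrected, as described below, RPLP0 was still lower, but RPLP2 and RPL12 were not called. When libraries were left out in turn, RPLP2 lost the call in 1 fit and RPL12 in 2, and RPLP0 kept it throughout. RPLP0 is widely used as a reference gene in quantitative PCR. RPL13A and RPS18 have the same use. The log2 fold change of RPL13A was 0.08 and did not pass (edgeR adjusted p = 0.174), and that of RPS18 was 0.12 and passed.

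On the small subunit, 6 of 31 genes were higher and none of the 31 was lower, with a median log2 fold change of 0.06. At an unadjusted p under 0.05, 9 of the 31 were called (42.9% of all tested genes were), and RPLP0 remained the only lower member with DESeq2 and limma-voom. None of the 6 higher genes was called by DESeq2, where 8.58% of all tested genes were higher. With length and GC content corrected, as described below, RPS29 alone of the 6 stayed higher, against 14.9% of all tested genes. RPS29, a small zinc-binding protein of the head that is mutated in some cases of Diamond-Blackfan anaemia, had 103.2, 105.0 and 100.1 CPM in knockdown and 96.95, 87.30 and 90.79 CPM in control. Its groups were separate (log2 fold change 0.16, SE 0.0484, edgeR adjusted p = 0.0119). RPS28, next to the mRNA exit, had 96.33, 100.3 and 91.85 CPM in knockdown against 85.38, 87.42 and 90.37 CPM in control (log2 fold change 0.135, edgeR adjusted p = 0.0305). Its groups were also separate, and 27.5% of its exon bases overlap KANK3 on the other strand. RPS15A, another Diamond-Blackfan anaemia gene, had 199.8, 188.4 and 182.9 CPM in knockdown and 176.5, 173.5 and 170.2 CPM in control (log2 fold change 0.13, edgeR adjusted p = 0.0205). RPS13, which forms a bridge to the large subunit, had 183.0, 185.9 and 171.7 CPM in knockdown and 168.5, 162.7 and 162.8 CPM in control (log2 fold change 0.13, edgeR adjusted p = 0.0261). RPS14, whose reduced dosage underlies the anaemia of the 5q- syndrome, had 253.4, 257.7 and 239.0 CPM in knockdown and 232.4, 225.6 and 235.8 CPM in control (log2 fold change 0.11, edgeR adjusted p = 0.0471). In these 3 genes each knockdown library was above each control library, by a narrow margin for RPS14 and RPS13. RPS18, in the head, had 254.2, 255.0 and 240.9 CPM in knockdown against 229.8, 219.1 and 241.6 CPM in control, so its groups overlapped (edgeR adjusted p = 0.0382).

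**Figure D3:**
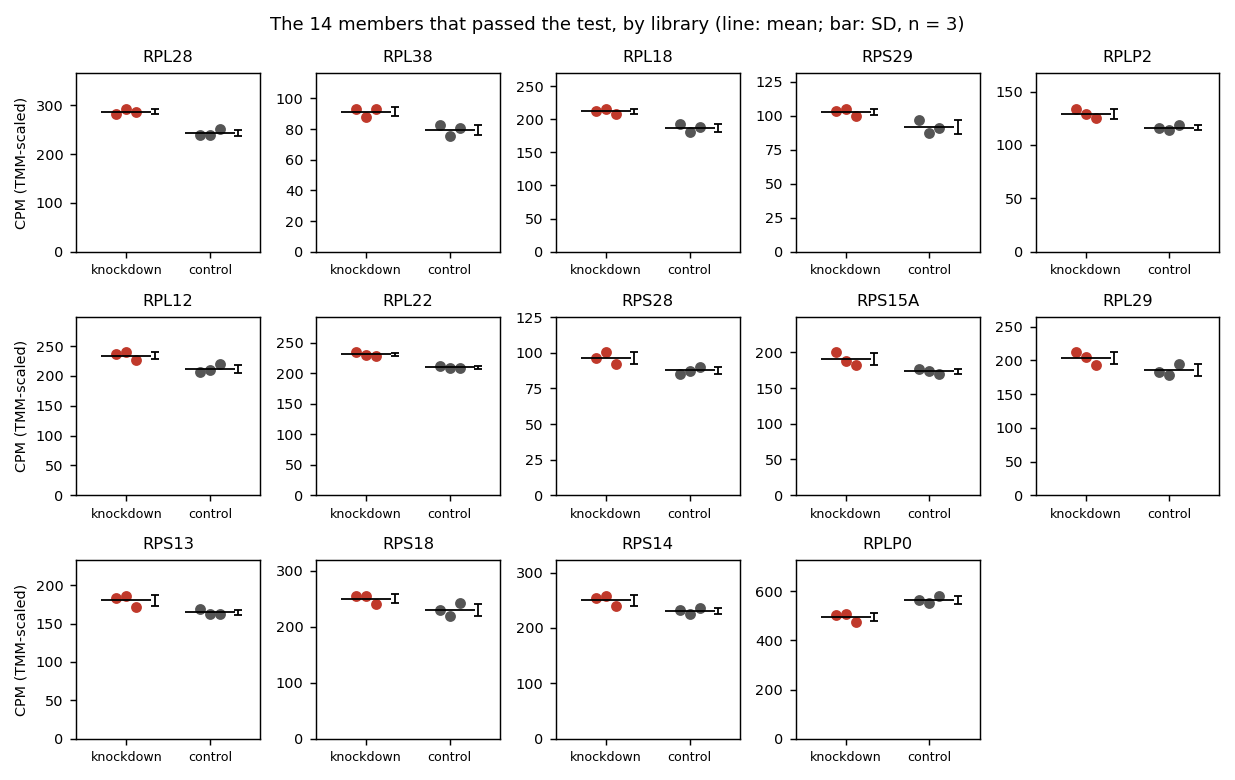
TMM-scaled CPM (y axis, from 0) of the 14 members that passed the test, in the 3 knockdown and 3 control libraries; each point is a library, lines are means and bars are SD. Knockdown points lie above control points in 11 panels, overlap them for RPL29 and RPS18, and lie below them for RPLP0.

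Grouped by role, most members did not pass. The 5S ribonucleoprotein and other MDM2-binding proteins, through which surplus ribosomal proteins raise p53, had 0 of 5 genes called in either direction, and none of the 5 had an unadjusted p under 0.05. RPL5 had 404.5, 398.3 and 379.3 CPM in knockdown against 373.0, 366.2 and 387.8 CPM in control, and RPL11 had 219.4, 206.6 and 194.2 CPM in knockdown against 208.0, 192.9 and 199.5 CPM in control. Both genes overlapped between the groups. RPS6, the substrate of the S6 kinases, was at 0.01 (log2 fold change, SE 0.0442, edgeR adjusted p = 0.917), and the list of it and the decoding side had 0 of 6 genes called, 2 of them at an unadjusted p under 0.05. The list of the exit tunnel and its rim had 1 of 9 higher (RPL38), the mRNA exit side 2 of 6 (RPS14 and RPS28), and the beak of the small subunit 1 of 5 (RPS29). Of 20 Diamond-Blackfan anaemia genes, 4 were higher (RPL18, RPS15A, RPS28 and RPS29), none was lower and 5 had an unadjusted p under 0.05. RPS19, the gene most often mutated in that disease, had 213.7, 203.7 and 200.6 CPM in knockdown and 207.1, 191.4 and 204.7 CPM in control (log2 fold change 0.03, edgeR adjusted p = 0.593). These lists share members and differ in size, so their counts are descriptions, to be set beside 33.3% of all tested genes called (15.3% higher) and 42.9% at an unadjusted p under 0.05. DESeq2 and limma-voom also called 0 genes of the MDM2-binding and decoding-side lists. Of the decoding side, RPS9 and RPS23 were called higher with upper-quartile scaling, library-size scaling and the replicate block. RPS9 was also called higher without knockdown library 3.

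Below RPLP0, the lowest fold changes were small. RPS21 had 68.48, 60.64 and 64.60 CPM in knockdown and 73.21, 61.48 and 66.13 CPM in control (log2 fold change −0.06, SE 0.0609, edgeR adjusted p = 0.484). RPL6 and RPL23A each averaged −0.05 (edgeR adjusted p = 0.39 and 0.388), RPL23 −0.03, and RPL21, RPL19 and the paralog RPL22L1 each −0.02. The groups of these 7 genes overlapped. At the upper edge, RPL39 (edgeR adjusted p = 0.0513), RPS12 (0.0516) and RPL24 (0.0523) lay just outside the threshold and RPS14 (0.0471) just inside it. RPS12 had 203.9, 202.3 and 198.5 CPM in knockdown, all above its 193.1, 183.4 and 183.5 CPM in control. RPL39 and RPL24 overlapped between the groups.

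The members moved together from library to library, by about as much as they differed between the groups. Relative to the mean of the 6 libraries, the median member was at 0.07, 0.04 and −0.02 (log2) in knockdown libraries 1 to 3 and at −0.01, −0.08 and −0.01 in control libraries 1 to 3. Knockdown library 3 thus lay below control libraries 1 and 3, so the groups overlapped in the median member. Of the 83 members, 78, 67 and 22 were above their 6-library mean in knockdown libraries 1 to 3, and 28, 5 and 36 in control libraries 1 to 3. The median of all tested genes stayed between −0.002 and 0.008 on the same scale. The summed counts of the 87 members overlapped between the groups as well. They took 2.043%, 1.982% and 1.899% of the counts in knockdown libraries 1 to 3, and 1.904%, 1.83% and 1.881% in control libraries 1 to 3. The means were 1.975% ± 0.0722 in knockdown and 1.872% ± 0.0381 in control (SD, n = 3 each), and again the third knockdown library was below the highest control library. The exact 95% binomial intervals, which cover counting error only, were 1.89% to 1.908% for that knockdown library and 1.897% to 1.912% for control library 1, and overlapped. The large subunit took 1.184% in knockdown and 1.123% in control, and the small subunit 0.7577% in knockdown and 0.7174% in control, on average. The count of 13 higher members changed with the libraries used. It was 6 without knockdown library 1, 6 without knockdown library 2, 24 without knockdown library 3, 13 without control library 1, 6 without control library 2 and 17 without control library 3, while 11.6% to 14.3% of all tested genes were higher. RPLP0 was the 1 lower member in each of these fits. RPL28, RPL38, RPL18 and RPL22 stayed higher in all 6, and the other 9 lost the call in 1 to 4 of them.

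**Figure D4:**
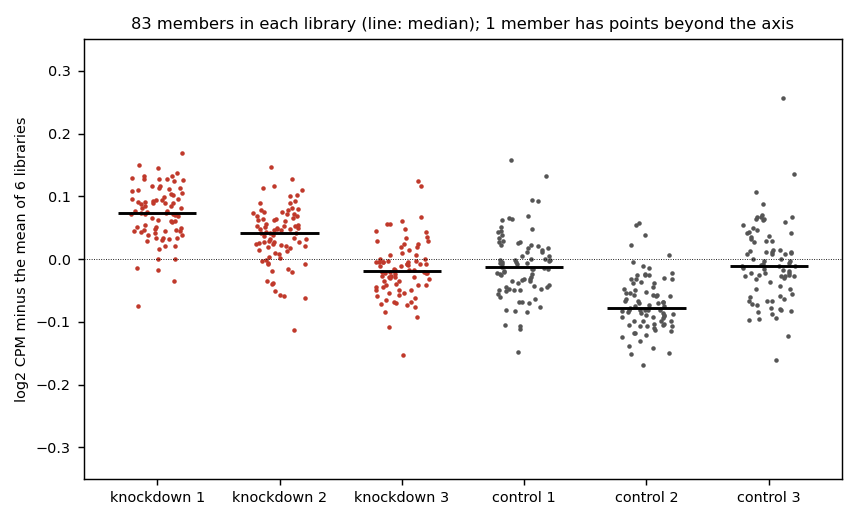
Log2 CPM of each of the 83 members minus its mean over the 6 libraries (y axis), by library (x axis); points are genes and lines are medians. The medians are 0.07, 0.04 and −0.02 in knockdown libraries 1 to 3 and −0.01, −0.08 and −0.01 in control libraries 1 to 3; 1 member, RPL39L, has points beyond the axis.

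The small shift also changed with the scaling and with a joint correction for length and GC content. Ribosomal protein mRNAs are short: the median transcript model of the members was 709 bases with a coding sequence of 456, against 2947.5 and 1437 bases for all tested coding genes. With the dependence on transcript length and GC content taken out per library, the median log2 fold change of the members was 0.03, and 3 members (RPL28, RPL38 and RPS29) were higher and RPLP0 lower, with 14.9% of all tested genes higher. With scaling by library size alone, 30 members and 18.4% of all tested genes were higher, and with upper-quartile scaling 25 members and 16.9% of all tested genes. RPLP0 was the 1 lower member with each scaling. RPL28 and RPL38 (higher) and RPLP0 (lower) were called in every one of the 18 alternatives tried. The log2 fold change of RPL28 ranged from 0.16 to 0.27 over them, that of RPL38 from 0.17 to 0.23 and that of RPLP0 from −0.24 to −0.16.

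The paralogs, copies of ribosomal protein genes that can replace the usual subunit or act outside the ribosome, had 0 of 6 tested genes called by edgeR, DESeq2 or limma-voom, and 1 with an unadjusted p under 0.05. RPL10L, used in the male germline, had no counts, and RPL3L, of skeletal muscle and heart, had 1 count over the knockdown libraries and 2 over the control libraries. Neither is detectable at this depth, at which 3 counts correspond to 0.259 to 0.42 CPM. The levels of RPS4Y1 and RPS4Y2, copies of RPS4X on the Y chromosome, are not given, and these 4 paralogs did not enter the test. RPL36AL had 69.42, 64.36 and 65.83 CPM in knockdown and 64.32, 58.51 and 58.15 CPM in control, just apart (log2 fold change 0.13, SE 0.0560, edgeR adjusted p = 0.0651). It was called higher in 3 of the 18 alternatives: library-size scaling, the replicate block and the fit without control library 1. Its parent RPL36A had 93.82, 90.55 and 85.99 CPM in knockdown against 86.76, 78.96 and 90.09 CPM in control, with overlap. RPL22L1, which in mice takes the place of Rpl22 where that is missing, had 25.65, 25.37 and 24.07 CPM in knockdown and 25.90, 25.82 and 24.10 CPM in control (edgeR adjusted p = 0.875). As RPL22 was higher in knockdown, the RPL22L1 counts were 11%, 11% and 10.5% of the RPL22 counts in knockdown libraries 1 to 3 and 12.2%, 12.4% and 11.6% in control libraries 1 to 3. These 2 sets of ratios do not overlap, and with 3 libraries a group the smallest two-sided p of an exact permutation test would be 0.1. RPS27L, a p53 target, was at 72.3% of RPS27 counts in knockdown and 72% in control on average, RPL26L1 at 22.5% of RPL26 in knockdown and 22.2% in control, and RPL7L1 at 24.8% of RPL7 in knockdown and 25.1% in control. All these percentages are ratios of counts without a length correction, so they compare the groups and not the level of a paralog with its parent. RPL39L, at 3.246, 3.259 and 3.292 CPM in knockdown and 3.453, 2.057 and 3.783 CPM in control, had the widest error of the members (SE 0.226 on the log2 scale).

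Levels were compared per length, as TPM (counts per base of transcript, scaled to the same total in each library), computed with the shortest GENCODE v29 transcript that has the full coding sequence. The highest were RPL15, at 1636 ± 43.4 TPM in knockdown and 1571 ± 16.6 in control, and RPS2, a decoding-side protein, at 1456 ± 68.0 in knockdown and 1405 ± 49.5 in control (SD, n = 3 each). Also among the highest were RPS27 at 1189 ± 58.8 in knockdown and 1158 ± 51.5 TPM in control, and RPLP0 at 1010 ± 28.9 in knockdown and 1154 ± 22.9 TPM in control. In control, RPS27 and RPLP0 differed by less than their spread. RPLP0 ranked 13 among the members in knockdown and 5 in control. The median was 750.2 TPM in knockdown and 707.8 in control for large-subunit genes, 844.7 in knockdown and 792.3 in control for small-subunit genes, and 47.73 in knockdown and 46.66 in control for paralogs. The lowest tested members were RPL39L at 12.44 TPM in knockdown and 11.8 in control, RPL22L1 at 28.42 in knockdown and 28.73 in control, RPL7L1 at 47.55 in knockdown and 46.79 in control, RPS27L at 47.91 in knockdown and 46.54 in control, and RPL37 at 55.52 in knockdown and 53.29 in control. RPL37 is no paralog, and its low place comes with a transcript model of 7686 bases, 7242 of them 3′ UTR. By coding length alone it ranked 17 of 83 in control, RPLP0 ranked 13 and RPS27L ranked 34, so the order within the set depends on the transcript models.

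The members share features that the symbols do not fix. They lie on 22 chromosomes, with 12 of 87 on chromosome 19 and 1 on chromosome 10, which also carries the COMMD3 locus. Introns of 28 members hold 60 annotated small nucleolar RNAs, which guide the modification of ribosomal RNA, and 3 of the 14 called members (RPL12, RPLP2 and RPS13) are among these hosts. GENCODE lists 1145 processed or other pseudogenes named after 77 members, with 91 for RPL23A and 74 for RPSA. The median was 8 over all 87 members, those with none included. RPL28 has none, RPL38 has 3 and RPLP0 has 5, while RPL12 has 50 and RPS29 has 32. How the counting treated reads that fit both a gene and its pseudogenes is not given, so the levels of members with many copies are uncertain. Pseudogene symbols of members that the tables list, 31 in all, took 0.01805% of the counts in knockdown and 0.01835% in control. Of those tested, RPL23AP53 was lower (log2 fold change −0.17, edgeR adjusted p = 0.0137), while its parent RPL23A did not pass. Readthrough symbols that share exons with members can also take reads. RPS10-NUDT3 and RPL17-C18orf32 had 0 counts, and RPL36A-HNRNPH2 had 67.23 CPM in knockdown and 65.36 CPM in control (edgeR adjusted p = 0.666), so part of the RPL36A reads may sit there. The 7-base word TCATCCA was picked from these data in earlier work as the 3′ UTR word most associated with lower levels in knockdown. The longest annotated 3′ UTR of each gene was searched on the transcript strand. The word occurs in 3 of 83 members (3.61%) and in 1481 of 12504 tested coding genes (11.8%). That UTR had a median of 493 bases in members and 1439.5 bases in tested coding genes. It can exceed the 3′ UTR of the transcript model used for TPM, as in RPS29 (6828 against 95 bases). The part of UTR length in the difference was not tested. Tested genes without the word had a median log2 fold change of 0.02, and those with it one of −0.10. The word was picked for such a difference, so these medians are no test of it. The members' median of 0.06 stands beside the first of these as a description.

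The other genes of ribosome production gave small differences in both directions. RACK1, a scaffold protein of the small subunit that the symbol rule leaves out, is listed as GNB2L1. It had 473.7, 480.1 and 476.9 CPM in knockdown and 438.6, 438.9 and 457.2 CPM in control, so its groups were separate (log2 fold change 0.10, edgeR adjusted p = 0.0662). Of 20 other TOP mRNAs, 1 was higher and 1 lower, with a median of 0.03. The higher was EEF2, the elongation factor that moves the ribosome along (log2 fold change 0.14, edgeR adjusted p = 0.0265). Its 1037, 1065 and 1091 CPM in knockdown overlapped 924.4, 924.7 and 1049 CPM in control. The lower was IMPDH2, an enzyme of guanine nucleotide synthesis (−0.13, edgeR adjusted p = 0.0252).

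For RNA polymerase I, which transcribes ribosomal RNA, 5 of 20 genes were higher and 1 was lower, with a median of 0.08. RRN3, the factor that brings the polymerase to its promoter, had 113.6, 110.6 and 109.4 CPM in knockdown and 90.82, 91.64 and 82.53 CPM in control, well apart (log2 fold change 0.33, SE 0.0479, edgeR adjusted p = 3.26e-06). POLR1C, a shared subunit of polymerases I and III, was higher (0.36, edgeR adjusted p = 9.03e-05) and the polymerase I subunit CD3EAP was lower (−0.28, edgeR adjusted p = 0.0102). None of 17 snoRNP and nucleolar scaffold genes was called by edgeR, DESeq2 or limma-voom, with 2 at an unadjusted p under 0.05, and the nucleolar chaperone NPM1 had a log2 fold change of 0.01. Small-subunit assembly factors had 9 of 40 higher and 1 lower, with RRP12 (0.24) and the kinase RIOK2 (0.22) among the higher and KRR1 (−0.29) the lower. Large-subunit assembly factors had 12 of 58 higher and 4 lower. ZNF622, which acts on late pre-60S particles, was higher (0.38, edgeR adjusted p = 0.000247), and the nucleolar proteins GNL3L (−0.34) and URB2 (−0.32) were lower. Ribosome-associated quality control had 5 of 22 higher, including TRIP4 (0.27) and the rescue factor PELO (0.20), and 2 lower, including the helicase ASCC3 (−0.29). In the list of mTORC1 and TOP control, 3 of 17 were higher, the mTORC1 inhibitor TSC2 (0.19), the S6 kinase RPS6KB2 (0.20) and the translation inhibitor PDCD4 (0.17), and 2 were lower, the kinase MTOR itself (−0.15, edgeR adjusted p = 0.0229) and the 4E-binding protein EIF4EBP2 (−0.13, edgeR adjusted p = 0.03). These shares stand beside 15.3% higher and 18.1% lower among all tested genes, and no list was tested as a whole.

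**Figure D5:**
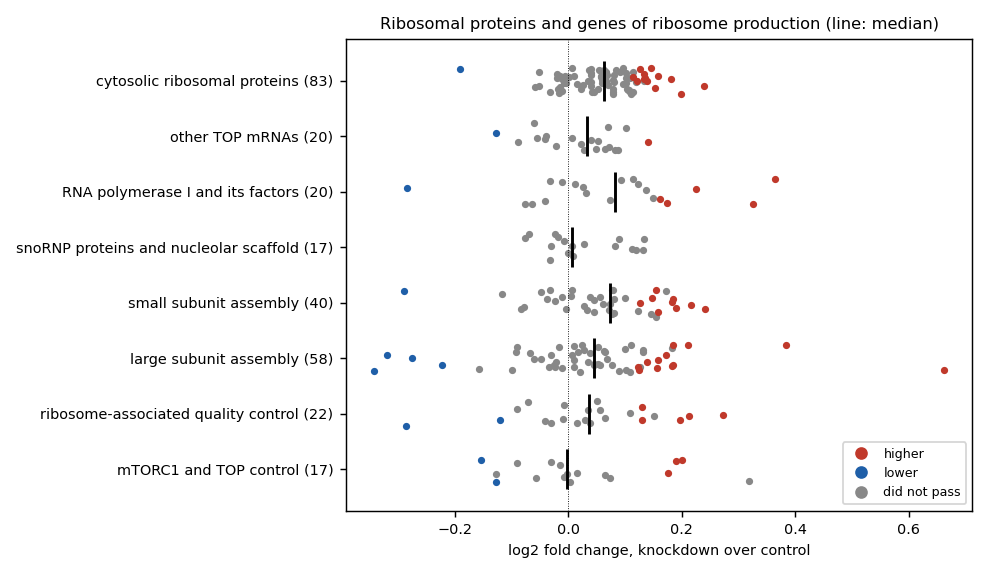
Log2 fold change (x axis, knockdown over control) of the ribosomal proteins and of 7 lists of genes of ribosome production and its control (rows, tested genes in brackets); each point is a gene, colour is the call and lines are medians. The medians lie between −0.003 and 0.08, and the ribosomal proteins run from −0.19 to 0.24, the large-subunit assembly factors from −0.34 to 0.66.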

How the data were processed

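RNA of 6 AF22 samples was sequenced, 3 knockdown and 3 control, grouped by the sample titles. Libraries were made from total RNA with a directional kit, per the labels' protocols. Trim Galore 0.6.6, STAR 2.7.10a, bedtools and hg38 appear in the submitters' processing notes. Which tool counted the reads, with which strand setting and annotation, and how reads with several matches were treated, is not given in the sources used here. Per sample, in tables the authors deposited, values are a read count per gene symbol, whole numbers that were not normalised.

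Members and gene lists were chosen with earlier results of these data known. Genes passing filterByExpr (edgeR 4.0.16, R 4.3.3) were scaled by TMM (factors 0.9797 to 1.015) and tested by the quasi-likelihood method without covariates. The Benjamini-Hochberg adjustment ran over all 13632 genes tested, and calls are at an adjusted p under 0.05. Replicate pairs differed by more than counting noise (chi-square per degree of freedom 1.23 to 1.994). The rule for named genes took the target locus, all called members, the 8 highest and 8 lowest by log2 fold change, the 5 highest and 5 lowest by level, paralogs with their parents, readthrough partners, and up to 3 called genes per pathway list. Members named beyond the rule (RPL5, RPL11, RPL13A, RPS6, RPS9, RPS12, RPS19, RPS23 and RPL24) were chosen after their values were seen. The choice was for their role, their closeness to the threshold or their calls in other fits. MTOR, EIF4EBP2 and the cell type markers singled out were also chosen after their values were seen. Symbols were matched to GENCODE v29 for 92.8% of 26485 symbols. Start sequences are RefSeq's. limma 3.58.1 and DESeq2 1.42.0 served as alternatives, and figures used Python 3.11.15 with Matplotlib 3.10.9. Some values of the named genes are not reported here. The edgeR step was tested on simulated data. Other scalings, filters, a block on the replicate number, a length and GC correction, added pseudogene counts and leaving out each library were also run.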

Additional observations from a re-analysis of the deposited data

How the results depend on the processing

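Each comparison was repeated under 18 alternatives. RPLP0 was the 1 lower member in all of them, and the median log2 fold change of the members stayed above 0, between 0.025 and 0.099. The number of higher members moved by over 1.5 times in several, given here with the share of all tested genes higher in brackets. Against 13 (15.3%), it was 25 with upper-quartile scaling (16.9%) and 30 with library-size scaling (18.4%). It was 6 with DESeq2 (8.58%) and 28 with the replicate block (18%). With the length and GC trend removed it was 3 (14.9%), and 6 with that correction and the replicate block together (16.2%). When libraries were left out in turn it ran from 6 to 24 (11.6% to 14.3%). Among all tested genes DESeq2 called 2865, against 4545. Of the 14 called members 3 kept the call in all 18 (RPL28, RPL38 and RPLP0), 49 of the 69 others were called in none, and 29 of the 69 changed sign, uncalled, in 1 or more. Whether the replicate numbers pair the libraries is not stated. Over all tested genes, deviations of same-numbered libraries had correlations of 0.079, 0.005 and 0.071, and those of differently numbered libraries ran from −0.104 to 0.039. By the same measure, 4 of 6 libraries correlated best with their own number. Over the members the same-numbered correlations were 0.231, 0.124 and 0.248. These low values do not settle whether the numbers are pairs. The main test used no block, and the block was run as an alternative. For the summed member counts per library, the knockdown minus control difference in share, 0.103 percentage points, was 0.11 without the interferon list in the total, 0.101 without paralogs, 0.102 with pseudogene counts added, and 0.0685 to 0.14 with each library left out, a check chosen after seeing the data. The causes of these movements were not tested. The depth limits statements on members below about 0.42 CPM.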
